A study of Mus musculus with 6 samples.

Results

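The genes described here serve the clearance of dying cells by macrophages and the CD47-SIRPA brake on phagocytosis. They are the receptor tyrosine kinases MERTK, AXL and TYRO3, the bridging ligands GAS6, PROS1 and MFGE8, the inhibitory receptor SIRPA with its relative SIRPB1, and CD47, the ligand of SIRPA. They were chosen by name, and all 9 were found among the 20036 genes of the table, each in a single row. Transcripts were measured by RNA sequencing in THP-1, a human monocytic leukaemia line that the phorbol ester PMA turns into adherent macrophage-like cells. In the 3 melittin libraries, cells first received PMA (100 ng/ml, 48 h) and then stayed for 48 h below tumour cells, across the membrane of a Transwell, with melittin, the lytic peptide of bee venom, at 3 µg/ml. In the 3 control libraries, named NC, the PMA step is that of the series as a whole, and the labels do not say whether these wells held tumour cells, so melittin and co-culture cannot be told apart. All cells are of a single leukaemia line, and nothing says that replicates came from separate cultures, and p-values therefore speak only of the spread among these libraries, which may be technical.

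Efferocytosis is the uptake of apoptotic cells, which show phosphatidylserine on their surface. GAS6 and PROS1 are vitamin K-dependent proteins that bind this lipid with one end and the TYRO3, AXL and MERTK receptors (together the TAM receptors) with the other, while MFGE8 links the lipid to integrins. MERTK is the TAM receptor best known for efferocytosis in macrophages, and signalling through TAM receptors restrains inflammatory responses. CD47 is a broadly expressed surface protein that tells phagocytes to spare a cell: it engages SIRPA on the macrophage, whose cytoplasmic tail recruits the phosphatases PTPN6 and PTPN11. SIRPB1 resembles SIRPA outside the cell but lacks that tail, and signals through the adaptor TYROBP.

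Library totals ran from 16001423 to 19597781 counts, and a single count was worth 0.0471 to 0.067 CPM (counts relative to library size, with TMM scaling). The groups differed widely: at an adjusted p under 0.05, 76.4% of 12029 tested genes were called, with 38.1% higher and 38.3% lower with melittin. When libraries were scaled only by their total counts, the median over tested genes of the log2 fold change was −0.24 rather than −0.0069, and 33.6% rather than 49.8% of calls were higher. Macrophage markers summed to 3177 to 3282 CPM in melittin libraries and 4191 to 4225 CPM in control libraries. Among these 11 markers, 2 rose and 6 fell, and CD68 had 1 count with melittin and 0 in controls. Whether the low value of CD68 reflects the counting was not tested. The part of the difference in macrophage markers in the results on single genes was not tested. Of 14 markers of prostate and epithelial tumour cells, 7 had no count in any library, EPCAM, KRT18, KRT19 and TMPRSS2 among them. Their sum was 93.3 to 105 CPM with melittin and 66.04 to 69.98 CPM in controls. Of the markers with some counts, KRT8 had 17 over the melittin libraries and 8 over the controls, and KLK3 had 2 over the melittin libraries and 0 over the controls. In bulk RNA, fewer cells of a type and less RNA per cell cannot be told apart.

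MERTK, the most abundant TAM receptor per length in these cells, fell with melittin while its relative TYRO3 rose. The ligands also split: PROS1 fell, and GAS6 and MFGE8 rose. On the other axis both SIRPA and CD47 fell, SIRPA more than CD47. Of the 9 members 8 passed the filter on low counts, and 7 of these changed, 3 higher and 4 lower, where 76.4% of all tested genes did. In the same 7 members the 3 melittin and 3 control CPM values did not overlap, which held for 77.4% of tested genes. A share of called members of this size is thus near the background, and what sets single members apart is the size of their change.

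**Figure D1:**
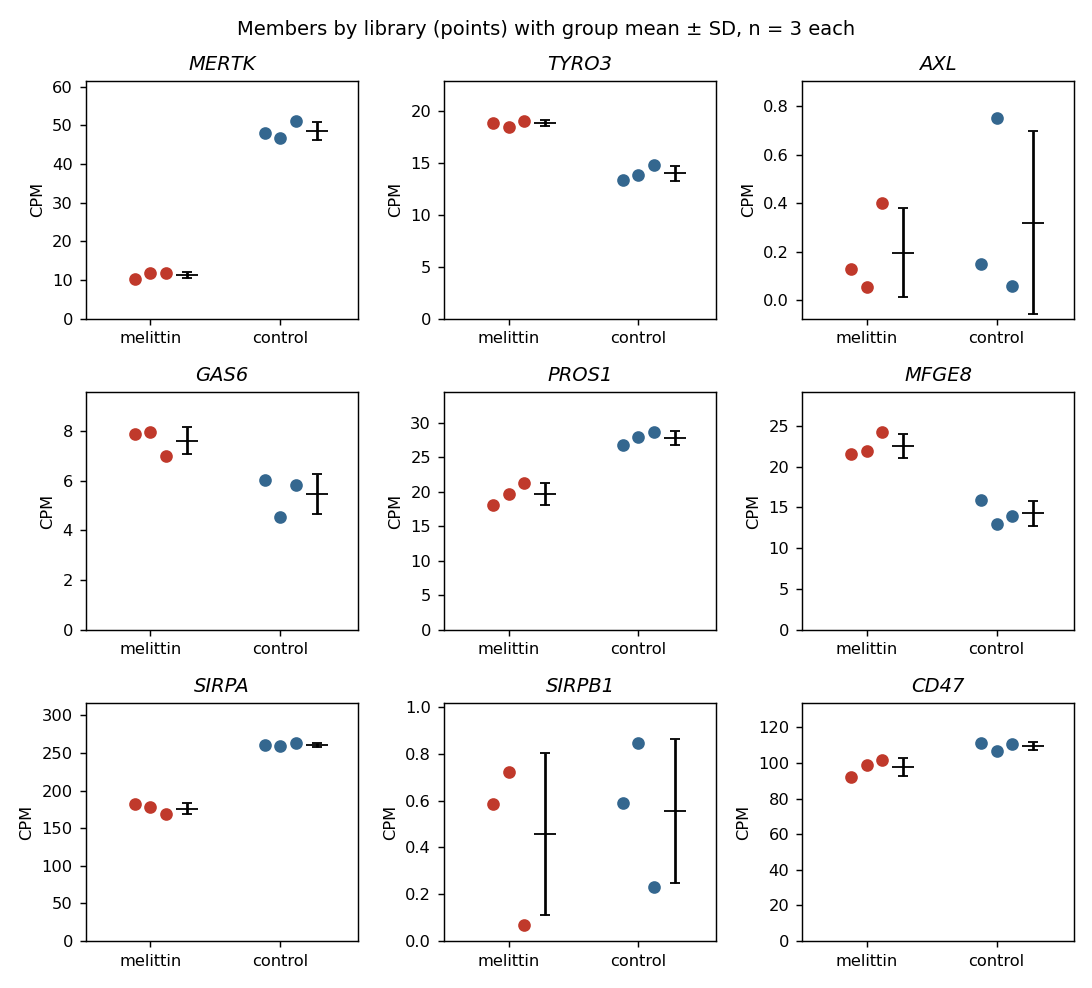
CPM of the 9 members in each library, melittin on the left and control on the right of each panel, with the group mean and SD (n = 3 each) beside the points. MERTK, PROS1, SIRPA and CD47 lie lower and TYRO3, GAS6 and MFGE8 higher in every melittin library than in any control, while AXL and SIRPB1 stay under 1 CPM with overlapping groups.

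MERTK (chromosome 2, 111898607 to 112029561, plus strand, GRCh38) was measured at 10.3, 11.7 and 11.7 CPM in the melittin libraries, against 47.9, 46.7 and 51.2 CPM in the control libraries. The groups lie far apart, with 159 to 210 counts per melittin library and 886 to 992 per control library. The mean was 11.3 ± 0.790 CPM with melittin and 48.6 ± 2.32 CPM in controls (SD, n = 3 each). The log2 fold change was −2.11 (SE 0.0737, edgeR quasi-likelihood adjusted p = 8.3e-20), which is 4.3-fold lower. It was the member with the widest change, and the only one that also passed the test against a 1.5-fold change (adjusted p = 3.94e-17), which 29.1% of tested genes passed. Only 1.81% of tested genes had a lower log2 fold change. In length-scaled level (FPKM), MERTK stood above 75.2% of tested genes in controls and above 42.7% with melittin.

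TYRO3 (chromosome 15, 41557675 to 41583589, plus strand), a TAM receptor known mostly from the nervous system, was measured at 18.9, 18.5 and 19.1 CPM with melittin, against 13.3, 13.9 and 14.8 CPM in controls. Every melittin library was above every control. The log2 fold change was 0.43 (SE 0.0848, adjusted p = 5.53e-05). The rise was small: it missed the test against a 1.5-fold change (adjusted p = 1) and, at 0.12 and 0.18 on the log2 scale, the tests on FPKM (limma adjusted p = 0.0572 and 0.0751).

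AXL (chromosome 19, 41219223 to 41261766, plus strand), the TAM receptor that inflamed and interferon-exposed phagocytes often carry, was close to the limit of detection. It had 2, 1 and 6 counts in the melittin libraries, against 3, 16 and 1 in the control libraries. Of the 20 control counts 16 came from control replicate 2, the groups overlap, and the gene did not pass the filter. Fitted without a filter, its log2 fold change was −0.82 (adjusted p = 0.366). No difference in AXL was detectable at this depth.

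Within each library the balance of the TAM receptors could be read free of library scaling. MERTK made up 58.5, 62.0 and 60.5% of the summed FPKM of the 3 receptors in melittin libraries, against 90.1, 88.7 and 89.9% in control libraries. TYRO3 made up 40.9, 37.7 and 37.8% with melittin, against 9.63, 10.1 and 9.97% in controls, and AXL at most 1.67% in any library. The ratio of MERTK to TYRO3 in FPKM was 1.43, 1.64 and 1.6 with melittin, against 9.36, 8.76 and 9.02 in controls. It was thus 5.82-fold lower with melittin, with no overlap of the groups (exact two-sided permutation test, p = 0.1, the smallest that 3 against 3 libraries allow). MERTK remained the more abundant of the pair per length in all 6 libraries. That order and the shares rest on the deposited gene lengths, 4133 bases for MERTK and 10770 bases for TYRO3. In raw counts TYRO3 was above MERTK with melittin (290, 333 and 285 against 159, 210 and 175) and below it in controls. The ratio of MERTK to TYRO3 and the shares were chosen after the values were seen. The summed FPKM of the TAM receptors was 4.16 ± 0.182 with melittin and 14.2 ± 0.598 in controls (SD, n = 3 each), a difference that follows MERTK.

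**Figure D2:**
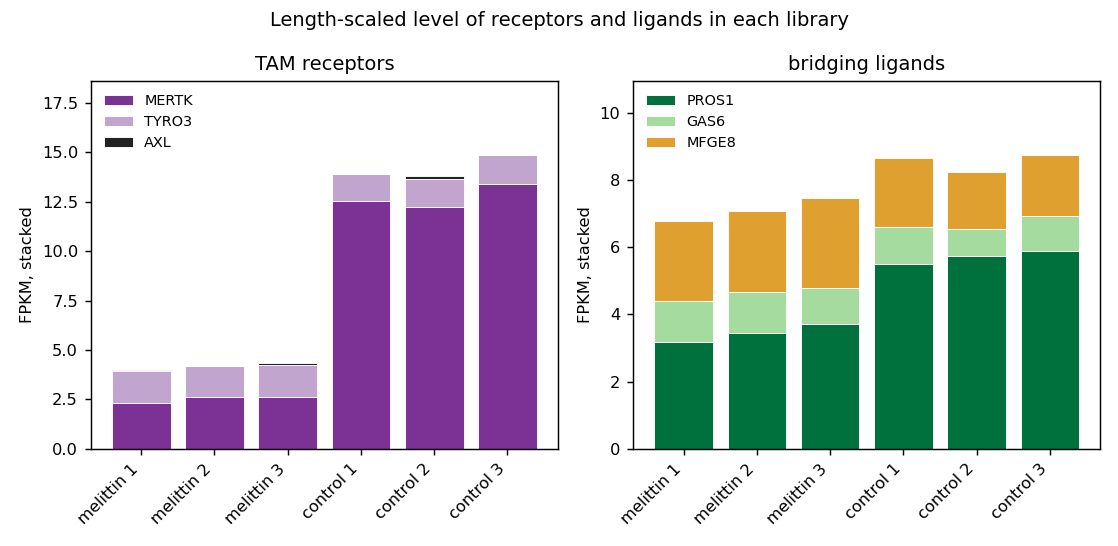
Deposited FPKM of the TAM receptors (left) and bridging ligands (right), stacked for each library, with the 3 melittin libraries left of the 3 control libraries. MERTK holds 58.5 to 62.0% of the receptor sum with melittin and 88.7 to 90.1% in controls, and PROS1 holds 46.8 to 49.7% of the ligand sum with melittin and 63.6 to 69.7% in controls.

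Among the bridging ligands PROS1 (chromosome 3, 93873051 to 93980003, minus strand), which encodes the anticoagulant protein S and is a ligand of TYRO3 and MERTK, was the most abundant per length. This rank rests on the deposited gene lengths, 5270 bases for PROS1 and 8325 bases for MFGE8. In raw counts MFGE8 had 1086 and PROS1 950 over the melittin libraries, and 840 and 1635 over the controls. PROS1 was at 18.1, 19.8 and 21.2 CPM with melittin, against 26.8, 27.9 and 28.7 CPM in controls, with all melittin libraries below all controls. Its log2 fold change was −0.50 (SE 0.075, adjusted p = 1.13e-06), or 1.41-fold lower, and it missed the test against a 1.5-fold change (adjusted p = 1). Reads of PROS1 may be shared with its closely similar pseudogene, so its level is less certain than that of the other ligands.

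GAS6 (chromosome 13, 113820549 to 113864076, minus strand), a ligand of all 3 TAM receptors, was the lowest of the ligands, at 7.87, 7.96 and 6.97 CPM with melittin, against 6, 4.52 and 5.84 CPM in controls. In CPM the groups lie close to each other without overlap. They do overlap in raw counts, with 104 to 143 per melittin library and 96 to 122 per control library, and in FPKM, where melittin replicate 3 (1.07) was just below control replicate 1 (1.08). The log2 fold change was 0.49 (SE 0.138, adjusted p = 0.00245). This call depends on scaling: by library totals only, the change was 0.26 (adjusted p = 0.092).

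MFGE8 (chromosome 15, 88898683 to 88913468, minus strand), the bridge from phosphatidylserine to integrins ITGAV-ITGB3 and ITGAV-ITGB5, showed the widest rise of the members. It was measured at 21.5, 21.9 and 24.3 CPM with melittin, against 15.9, 12.9 and 14 CPM in controls. Every melittin library was above every control, and the log2 fold change was 0.66 (SE 0.0888, adjusted p = 1.85e-07), or 1.58-fold higher. Under scaling by library totals only the change was 0.43 (adjusted p = 9.1e-05), and against a 1.5-fold change it did not pass (adjusted p = 0.225).

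The ratio of GAS6 to PROS1 in FPKM was 0.381, 0.353 and 0.287 in melittin libraries, against 0.196, 0.142 and 0.178 in control libraries. It was 1.98-fold higher with melittin, again without overlap (exact two-sided permutation test, p = 0.1, the smallest possible). PROS1 made up 48.4 ± 1.47% of the summed ligand FPKM with melittin and 66.9 ± 3.08% in controls, and MFGE8 35.1 ± 0.93% with melittin and 21.7 ± 1.95% in controls (SD, n = 3 each). The summed ligand FPKM itself was 7.11 ± 0.343 with melittin and 8.56 ± 0.28 in controls. These shares and sums rest on the deposited gene lengths. In mean FPKM, PROS1 was at 3.45 with melittin and 5.72 in controls. GAS6 (1.17 against 0.98) and MFGE8 (2.50 against 1.86) were higher with melittin. FPKM is scaled by library totals, and the part of scaling in the lower sum was not tested.

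SIRPA (chromosome 20, 1894167 to 1940592, plus strand) was the most abundant member, above 91.0% of tested genes in FPKM with melittin and above 95.04% in controls. It was measured at 182, 178 and 169 CPM with melittin, against 260.1, 259 and 263 CPM in controls, from at least 2516 counts in each library. The melittin libraries were all lower, with a log2 fold change at −0.57 (SE 0.0301, adjusted p = 1.05e-15), or 1.48-fold. Though its SE was the smallest of the members, it did not pass against a 1.5-fold change (adjusted p = 1).

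CD47 (chromosome 3, 108043091 to 108091862, minus strand) was measured at 91.9, 99.0 and 102 CPM with melittin, against 111, 107 and 111 CPM in controls. The groups did not overlap, but the distance between them was small: the log2 fold change was −0.17 (SE 0.0394, adjusted p = 0.000377), or 1.12-fold lower. The size of the change depended on the setting: it was −0.40 under scaling by library totals only (adjusted p = 2.8e-10), −0.40 with limma on log2(FPKM + 0.1) (adjusted p = 2.37e-05), and −0.064 (adjusted p = 0.139) with the trend of fold change on gene length removed, an alternative chosen after the values were seen. CD47 did not pass against a 1.5-fold change (adjusted p = 1).

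The ratio of SIRPA to CD47 in FPKM was 3.29, 2.98 and 2.75 with melittin, against 3.88, 4.02 and 3.95 in controls. SIRPA thus lost more than its ligand, by a log2 difference of −0.40 and with no overlap of the groups (exact two-sided permutation test, p = 0.1, the smallest possible). The 2 transcripts were counted in the same cells, and a contact between neighbouring macrophages or between macrophage and tumour cell cannot be read from them.

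SIRPB1 (chromosome 20, 1561385 to 1620061, minus strand) was a trace transcript, with 9, 13 and 1 counts in melittin libraries, against 12, 18 and 4 in control libraries. The groups overlap, and the lowest value of each group came from its replicate 3. The log2 fold change was −0.27 (SE 0.536, adjusted p = 0.653), an SE that leaves room for a change in either direction. Without melittin replicate 3 it was 0.20, and without control replicate 2 it was 0.16. SIRPB1 shares much of its sequence with SIRPA, so reads may be split between them, and it overlaps an unnamed gene on its own strand that had 0 counts. The other 8 members overlap no gene of the table. The remaining SIRP genes were near 0 as well: SIRPB2 had 6 counts with melittin and 2 in controls, and SIRPG and SIRPD each had 0 with melittin and 1 in controls.

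**Figure D3:**
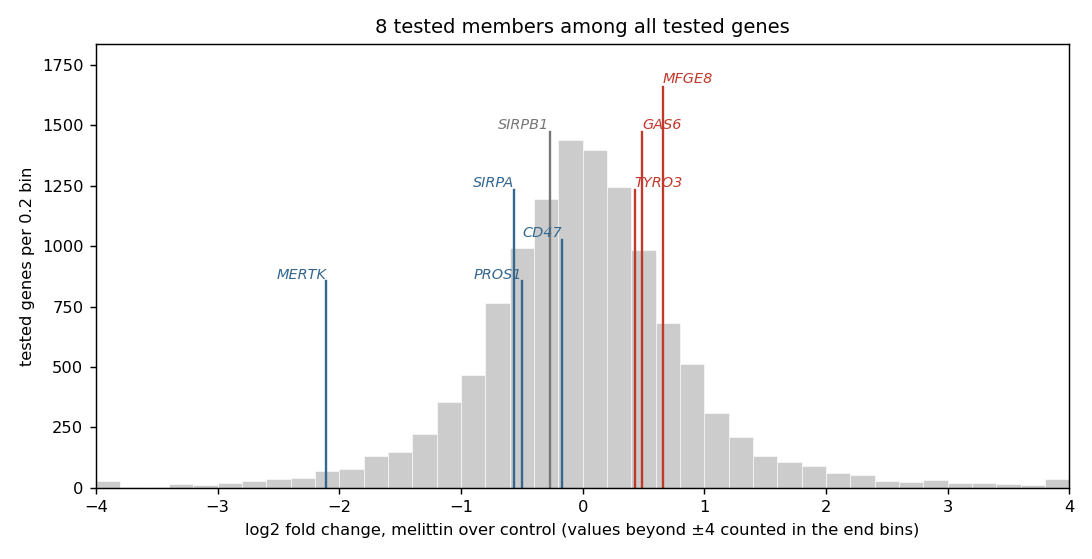
Number of tested genes in bins of 0.2 of the log2 fold change (melittin over control), with the 8 tested members as lines: blue for lower, red for higher and grey for not called. MERTK at −2.11 lies in the lower tail, and the other 7 lie between −0.57 and 0.66, within the bulk of the tested genes.

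The rest of the pathway was read from 7 lists of other genes, 92 in all, of which 75 were tested. Across them 34 genes rose and 29 fell, with a median log2 fold change of 0.03, against −0.0069 for all tested genes. These counts are near the shares over all tested genes, 38.1% higher and 38.3% lower, and the mix of directions is nothing particular to the lists. Scaled by library totals only, the counts were 25 higher and 39 lower.

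Of the other receptors for apoptotic cells 7 rose and 8 fell of 18 tested (median −0.06), about the shares of all tested genes. ITGB3, which pairs with ITGAV to bind MFGE8, rose to 492 ± 14.6 CPM with melittin, against 206 ± 5 CPM in controls (SD, n = 3 each). ITGB3 overlaps an unnamed gene on its strand, and how this bears on its counts was not tested. Its partner ITGAV fell by 0.65 and the alternative beta chain ITGB5 by 0.55 on the log2 scale (adjusted p = 2.53e-19 and 1.16e-14). LRP1, a receptor for calreticulin-marked cells, rose to 24.8 ± 1.1 CPM, against 10.5 ± 1.01 CPM in controls, and CD300LB, an activating receptor of the CD300 family, to 9.14 ± 0.554 CPM, against 2.09 ± 0.171 CPM. The scavenger receptors MSR1 and CD36 fell, with log2 fold changes of −2.81 and −1.88, as did CD14, with −1.09. The widest rise of the list was that of SCARF1, a scavenger receptor for apoptotic cells, at 4.64 ± 0.947 CPM with melittin, against 0.377 ± 0.115 CPM in controls. STAB1, a phosphatidylserine receptor, fell on few counts, with 8 over the melittin libraries and 44 over the controls (log2 fold change −2.13). The phosphatidylserine receptors TIMD4 and STAB2 did not pass the filter, at 25 and 3 counts over the melittin libraries and 19 and 1 over the controls.

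Other bridging molecules and opsonins changed little. Of 7 tested 4 rose and 1 fell, beside 38.1% higher and 38.3% lower of all tested genes. Those that rose were CALR, THBS1, LGALS3 and ANXA5, each by at most 0.20 on the log2 scale. These rises were smaller than the shift of all genes under scaling by library totals only (median −0.24), so their direction rests on the scaling chosen. ANXA1, which promotes uptake of apoptotic cells, fell to 214 ± 9.27 CPM with melittin, against 374 ± 6.8 CPM in controls (SD, n = 3 each). The complement C1q chains C1QA, C1QB and C1QC had at most 9 counts in either group.

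The engulfment machinery shifted by small steps, with 4 higher and 6 lower of 12 tested (median −0.09). The shares over all tested genes were 38.1% higher and 38.3% lower. Under scaling by library totals only, 2 of the list were higher and 8 lower. VAV1, an exchange factor for Rac, fell by 0.60 and CRK by 0.28 on the log2 scale, and ELMO2 had a log2 fold change of −0.17. The GTPases RAC1 and RHOA rose by 0.32 and 0.28 on the log2 scale, RHOA with no call under scaling by library totals only (0.05, adjusted p = 0.0829). RHOA also overlaps an unnamed gene on its strand. ABCA7, a transporter linked to phagocytosis, rose to 20.9 ± 2.13 CPM with melittin, against 7.16 ± 0.464 CPM in controls. DOCK1, the usual partner of ELMO proteins, had 0 counts in every library. CDC42 had only 43 counts with melittin and 39 in controls, and it overlaps an unnamed gene on its strand. Whether these low values reflect the counting was not tested.

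Of genes that sense and handle the lipid cargo of engulfed cells 5 rose and 5 fell of 11 tested (median 0.02). Of all tested genes 38.1% rose and 38.3% fell. The nuclear receptor genes NR1H2, PPARD and RXRA rose by 0.72, 0.63 and 0.72 on the log2 scale, with NR1H3 higher as well (0.65, adjusted p = 0.00019), while PPARG fell by 0.84. LIPA, the lysosomal acid lipase that frees cholesterol from ingested esters, fell to 145 ± 4.86 CPM with melittin, against 407 ± 5.04 CPM in controls (SD, n = 3 each). Of the cholesterol exporters, ABCA1 fell (log2 fold change −0.63) and ABCG1 rose, to 10.3 ± 2 CPM with melittin, against 2.09 ± 0.505 CPM in controls (log2 fold change 2.30).

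Genes that process or shed TAM components and answer to them were 5 higher and 3 lower of 9 tested (median 0.63). For all tested genes the shares were 38.1% higher and 38.3% lower (median −0.0069). GGCX, the carboxylase that GAS6 and PROS1 need to bind phosphatidylserine, rose to 43.9 ± 1.12 CPM with melittin, against 27.1 ± 0.882 CPM in controls (SD, n = 3 each), and the vitamin K reductase VKORC1L1 fell by 0.38 on the log2 scale. Its relative VKORC1 did not pass the filter, at 21 counts over the melittin libraries and 16 over the controls. VKORC1 overlaps an unnamed gene on its strand, and whether its low counts reflect the counting was not tested. ADAM17, the protease that cleaves MERTK from the cell surface, fell by 0.43, while RHBDF2 and RHBDF1, which guide ADAM17 to the surface, rose by 0.63 and 1.21. SOCS1 and SOCS3, cytokine-signalling inhibitors induced by TAM receptors through IFNAR1 in mouse dendritic cells, were higher (log2 fold changes of 2.94 and 2.71), and IFNAR1 fell by 0.39.

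Around SIRPA, 4 of 9 tested partners rose and 4 fell (median −0.01), beside 38.1% higher and 38.3% lower of all tested genes. The adaptors FYB1 and SKAP2, which join SIRPA complexes, fell by 2.98 and 1.22 on the log2 scale. FYB1 was at 3.56 ± 0.332 CPM with melittin, against 28.1 ± 1.87 CPM in controls, a wider change than that of SIRPA itself. The phosphatase PTPN6 rose to 170 ± 5.9 CPM with melittin, against 129.6 ± 2.55 CPM in controls, whereas the log2 fold change of PTPN11 was −0.01 (adjusted p = 0.645). Under scaling by library totals only, that of PTPN6 was 0.16 (adjusted p = 0.00015) and that of PTPN11 −0.24 (adjusted p = 2.85e-09). QPCTL, the enzyme that modifies the CD47 N terminus where SIRPA binds, rose to 29.9 ± 1.86 CPM with melittin, against 12.9 ± 0.901 CPM in controls (SD, n = 3 each). The kinase SYK fell by 0.66 and PTK2B rose by 0.53 on the log2 scale. TYROBP, through which SIRPB1 signals, had a log2 fold change of 0.23, and of 0.0033 under scaling by library totals only (adjusted p = 0.941).

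Among other checkpoints of phagocytosis 5 rose and 2 fell of 9 tested (median 0.49), beside 38.1% higher and 38.3% lower of all tested genes (median −0.0069). STC1, a secreted glycoprotein, rose to 428 ± 4.62 CPM with melittin, against 55.2 ± 1.62 CPM in controls. ITGAM, the integrin chain of complement receptor CR3, rose by 1.31 on the log2 scale, its partner ITGB2 fell by 0.19, and SLAMF7, which works with that integrin in uptake, fell by 0.37. LILRB1, the receptor for class I molecules, rose by 2.27. CD24 and its receptor SIGLEC10 did not pass the filter, at 10 and 18 counts over the melittin libraries and 33 and 10 over the controls.

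**Figure D4:**
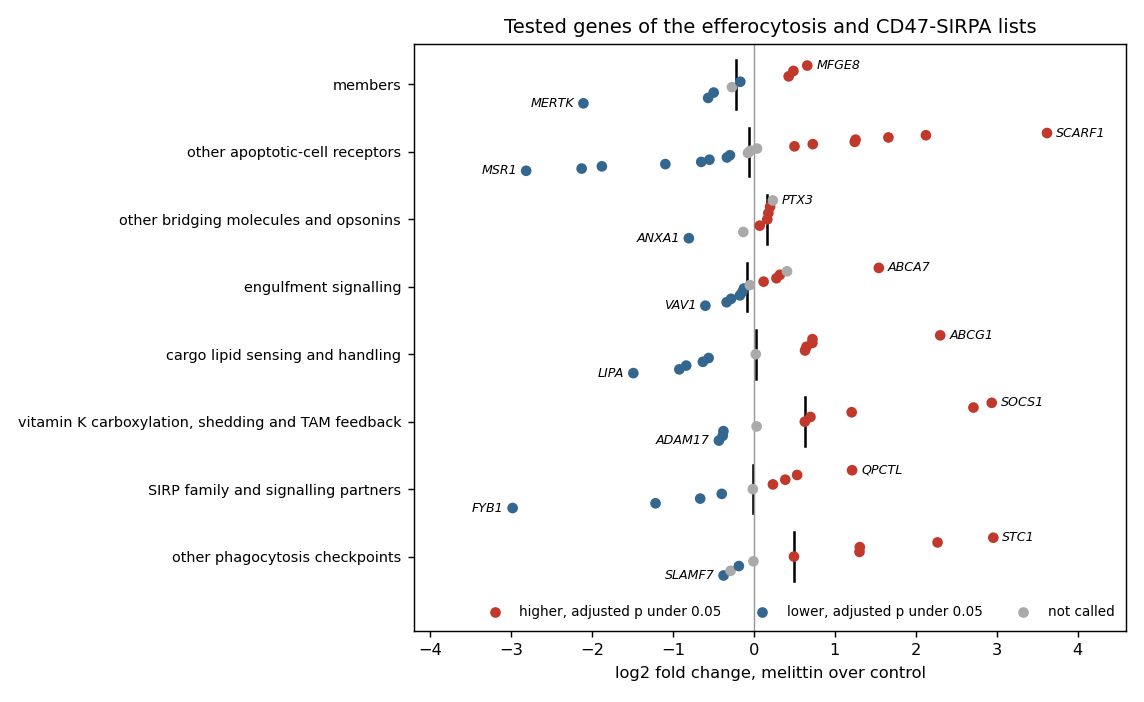
Log2 fold change (melittin over control) of each tested member and list gene, with the median of each row as a black bar and the lowest and highest gene named. Called genes lie on both sides of 0 in every row, from −2.98 (FYB1) to 3.62 (SCARF1).

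The deposited table also annotates genes to the Gene Ontology process of apoptotic cell clearance, a set looked at after the values were seen. It holds 5 of the members (MERTK, AXL, TYRO3, GAS6 and MFGE8) and 17 other genes, of which 13 were tested, 8 higher and 5 lower (median 0.58). Over all tested genes 38.1% were higher and 38.3% lower (median −0.0069). No test of the set was run. CD36, ITGAV and TREM2, a lipid-sensing receptor that signals through TYROBP, were the 3 that fell with the smallest adjusted p, TREM2 to 18.8 ± 2.15 CPM with melittin, against 45.2 ± 2.6 CPM in controls (SD, n = 3 each). JMJD6, a nuclear hydroxylase first described as a phosphatidylserine receptor, rose by 0.84 on the log2 scale.

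Genes with the most similar profile were sought for each tested member by the root mean square difference over the 6 libraries of log2 CPM centred on the control mean. For MERTK these were FRMD4A (0.0646) and TDO2 (0.068), for SIRPA TMEM165 (0.0192) and PFKFB3 (0.0197), and for CD47 HNRNPA3 (0.0147) and MT-ND5 (0.0193). For GAS6 the nearest was AGER (0.0284), itself on the list of apoptotic-cell receptors. With 2 groups this likeness mostly reflects an equal difference between them.

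**Figure D5:**
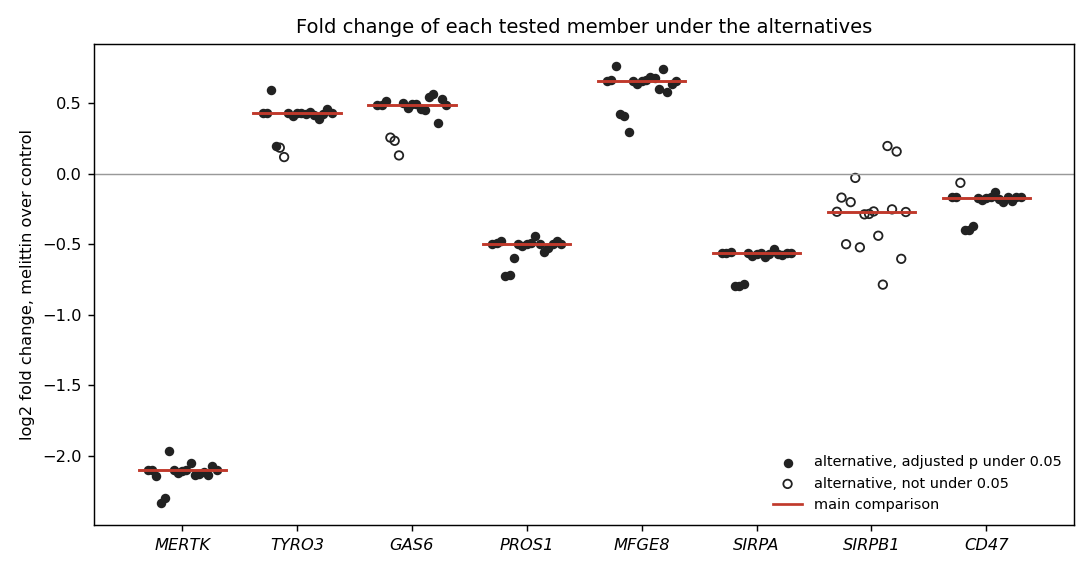
Log2 fold change (melittin over control) of each tested member under the main comparison (red line) and the alternatives (points, filled where the adjusted p was under 0.05); the test against a 1.5-fold change, which leaves the fold change as it is, is not drawn. MERTK, PROS1, MFGE8 and SIRPA keep filled points throughout, GAS6, TYRO3 and CD47 have open ones, and SIRPB1 crosses 0.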

How the data were processed

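RNA sequencing of 6 libraries, 3 melittin and 3 control, was analysed from the tables that the authors deposited. Per the labels' protocols, libraries were made from total RNA with a NEBNext Ultra II kit. Per the submitters' processing notes the build was GRCh38. The aligner, counter, strand setting and annotation release are not stated in the notes and labels used here. The organism label reads mouse, but all 20036 identifiers are human. Names, coordinates and lengths therefore come from the table, and no mouse reference was used.

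The annotated table holds raw read counts per gene as deposited by the authors. It also holds FPKM that the authors made from each count, the gene length and the library total (relative deviation at most 2.23e-09 for counts of at least 20), and a second deposited table repeats the FPKM.

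Counts were tested with edgeR 4.0.16 in R 4.3.3: filterByExpr with the group (12029 genes kept), TMM scaling, glmQLFit and glmQLFTest, two-sided, Benjamini-Hochberg adjustment over all tested genes, threshold 0.05. CPM are on TMM-scaled library sizes. Levels of different members are compared in FPKM, with raw counts given where these put the genes in another order. The SE was derived as the absolute log2 fold change over the square root of the F statistic. Ratios and shares within a library were compared by exact two-sided permutation tests (scipy 1.17.1), in which 3 against 3 cannot go below p = 0.1, and only for pairs with at least 10 counts in each library, which left out AXL to MERTK and SIRPB1 to SIRPA. Alternatives used DESeq2 1.42.0 and limma 3.58.1.

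The members and lists were chosen with earlier results of these data known. All members are named, and of each list up to 3 called genes per direction with the smallest adjusted p; further list genes were picked after their values were seen, and some list genes are not reported here. Pairs within a group differed by a chi-square of 1.73 to 3.92 per degree of freedom, more than sampling noise, so each library counted as 1 replicate. On simulated counts for these 12029 genes, 200 of them changed, edgeR called 91.0% of those given a 1.5-fold change, 93.9% of those given a 2-fold change and 100% of those given a 4-fold change. Of all its calls there, 4.06% were false. In the measured libraries 9190 of the 12029 genes were called, so these simulated rates need not hold for them. Recovery and false calls under so broad a difference were not simulated. Depth limits genes under about 10 counts per library, and counts cover counting error only.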

Additional observations from a re-analysis of the deposited data

How the results depend on the processing

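The fall of MERTK passed under all 18 alternatives, with log2 fold changes from −2.34 to −1.97. PROS1, MFGE8 and SIRPA kept their direction and passed under 17 of 18 each, and TYRO3, GAS6 and CD47 kept their direction under all 18 but passed under 15, 14 and 16. Against a 1.5-fold change, a stricter hypothesis by construction, 1761 genes were higher and 1734 lower, 0 members were higher and 1 lower, and 18 list genes were higher and 11 lower. There TYRO3 (0.43), GAS6 (0.49), PROS1 (−0.50), MFGE8 (0.66), CD47 (−0.17) and SIRPA (−0.57) did not pass. With limma on log2(FPKM + 0.1) and on log2(FPKM + 1), 1 member was higher in each, TYRO3 being at 0.18 and 0.12 and GAS6 at 0.23 and 0.13, and GAS6 was at 0.26 under scaling by library totals only. Both FPKM and totals carry the shift of all genes (median log2 fold change −0.22, −0.14 and −0.24). CD47 was at −0.064 with the length trend removed. The cause of other changes between settings was not tested.

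Leaving out each library in turn gave 4394 to 4552 genes higher and 4440 to 4595 lower, 3 members higher and 4 lower each time, and 33 to 35 list genes higher and 28 to 30 lower. SIRPB1 ranged from −0.79 to 0.20, being above 0 without melittin replicate 3 (0.20) and without control replicate 2 (0.16), each time without passing. The labels do not say whether equal replicate numbers mark a shared culture. Same-numbered libraries had correlations of their deviations between −0.046 and 0.018, which cannot show that no culture was shared. With a replicate block 4513 genes were higher and 4537 lower, again with 3 members higher and 4 lower, and it changed no call of a member. Ratios and shares kept their direction with each library left out, MERTK to TYRO3 between −2.58 and −2.48 on the log2 scale.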
